A study of Gallus gallus with 6 samples.

Results

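This report describes 10 genes of late neuronal differentiation in retinal ganglion cells, which build or regulate neurites and the neuronal cytoskeleton. They were chosen by symbol, with earlier results of these data known: STMN2, NEFL, NEFM, GAP43, TUBB3, DCX, ELAVL4, CNTN2, L1CAM and SNCG. Of these 10 symbols, 9 had a row among the 6789 genes of the count table, and 8 passed the filter on low counts, which 5041 genes passed in all. NEFL was not analysed here, and L1CAM was listed at 0 in every library.

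RNA was sequenced from chick retinal cells positive for Hes5.3, isolated by fluorescence-activated sorting from retinas of embryonic day 5. Explanted retinas were kept for 8 h in medium with retinoic acid (RA) at 2.5 µM, or in medium with DMSO, its solvent, as the control. Both media held 10% fetal bovine serum and antibiotics. Each library pooled 2 retinas, taken from separate embryos. The design has 3 RA libraries and 3 control libraries. In each of the 3 pairs, numbered 1, 3 and 4, one eye of an embryo went to RA and its fellow eye to the control. No genotype, strain or sex of the embryos was used here, and the labels do not say how Hes5.3 was made visible for the sort.

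Ganglion cells are the first neurons born in the vertebrate retina, and the only ones whose axons leave the eye, through the optic nerve. A newborn ganglion cell assembles a neuronal microtubule and RNA-binding apparatus and extends an axon whose growth cone is guided along other axons. Neurofilaments also fill that axon. RA is a vitamin A derivative that acts through nuclear receptors and is made in regional patterns in the developing eye. Hes5-type genes are Notch-responsive repressors known for their expression in neural progenitors. Whether the cells sorted here as positive for Hes5.3 were progenitors or newborn neurons was not tested.

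Library totals lay between 19808063 and 27235633 counts. Known RA targets were higher with RA in every pair. CYP26A1, which breaks RA down, averaged 3043 ± 813 CPM (reads scaled to a common library size) in RA libraries and 80.3 ± 6.36 CPM in control libraries (SD, n = 3 each), with a log2 fold change of 5.22 ± 0.10 (SE, edgeR adjusted p = 2.53e-14). DHRS3, a retinaldehyde reductase, and RARB, an RA receptor, were also higher in 3 of 3 pairs, by 3.26 and 0.91 on the log2 scale. With pair 1 left out DHRS3 was not called (adjusted p = 0.287), although its estimate was 3.24. Over all genes tested, edgeR's quasi-likelihood test with the pair as a block called 53 genes at a Benjamini-Hochberg adjusted p under 0.05, 48 higher and 5 lower with RA. That is 1.05% of the 5041 genes tested. The fit without the pair as a block called 6.

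The retinal progenitor list had 9 markers with a row, which summed to 6843 to 7973 CPM in RA libraries. In control libraries they summed to 6633 to 7428 CPM. Their means ran from SOX2, at 13.3 CPM in RA and 14.5 CPM in control libraries, to SIX3, at 1756 and 1686 CPM. Of these 9, 0 were called in edgeR. At an unadjusted p under 0.05 there were SIX6 and PAX6, against 8.67% of all genes tested. SIX6 was higher, by 0.22 on the log2 scale (edgeR adjusted p = 0.252), and PAX6 lower, at -0.14 (0.546). ATOH7, the bHLH factor needed for ganglion cells to form, averaged 47.5 CPM in RA libraries and 52.5 CPM in control libraries. The list of neural markers had 3 genes tested, HES5, DLL1 and ATOH7. ATOH7 was at -0.16 on the log2 scale and lower in 2 of 3 pairs. HES5 and DLL1 were higher with RA in 3 of 3 pairs, where 30.0% of all genes tested kept a single direction. Both were at an unadjusted p under 0.05 in edgeR, against 8.67% of all genes tested. Their log2 fold changes were 0.27 (edgeR adjusted p = 0.531) and 0.25 (0.213), so neither was called. The 6 ganglion cell transcription factors with a row summed to 1107 to 1501 CPM in RA libraries and 948 to 1217 CPM in control libraries, most of it SOX4 and SOX11, which are also active in other newborn neurons. POU4F3 stood at 2.98 and 2.92 CPM in RA and control libraries. The 7 blood and vessel markers summed to 1.76 to 10.5 CPM in RA libraries and 2.11 to 5.48 CPM in control libraries. Most of this was PTPRC, at 1.65, 9.69 and 4.62 CPM in the RA libraries of pairs 1, 3 and 4. In the control libraries PTPRC stood at 2.02, 4.60 and 4.69 CPM. HBZ, TAL1 and CDH5 had at most 2, 16 and 19 reads in a library. The globin genes HBE and HBM and the erythroid factor GATA1 were at 0 in all 6 libraries. Whether these values of 0 reflect the cells or the gene models was not tested. The 6 cone and rod markers with a row summed to 83.2 to 101 CPM in RA and 63.1 to 79.4 CPM in control libraries. These ranges did not overlap. The libraries of the 2 groups did not overlap, in either direction, for 7.48% of single genes tested. No such share was computed for sums over lists. All 4 cone and rod markers tested had estimates above 0, against 48.1% of all genes tested. Of these 4, 2 were at an unadjusted p under 0.05 in edgeR, against 8.67% of all genes tested, and 0 were called. On the log2 scale OTX2 was at 0.55 (edgeR adjusted p = 0.291), NEUROD1 at 0.32 (0.469), RXRG at 0.31 and THRB at 0.22. The photoreceptor gene RCVRN was at 0 in all 6 libraries. The 9 lens markers with a row summed to 55.1 to 75.9 CPM in RA libraries and 42.8 to 57.7 CPM in control libraries. All 5 lens markers tested had estimates above 0, against 48.1% of all genes tested, with 0 called. The lowest was 0.01 on the log2 scale for CRYAB, which was higher in 1 of 3 pairs. At an unadjusted p under 0.05 there were 2, against 8.67% of all genes tested: CRYAA at 1.12 (edgeR adjusted p = 0.453) and ASL1 at 0.57 (0.199). The 6 pigment epithelium markers with a row summed to 46.6 to 51.3 CPM in RA libraries and 40.5 to 46.3 CPM in control libraries. These ranges did not overlap either, with 46.6 and 46.3 CPM as the nearest values. Most of the sum was MITF, which averaged 45.4 CPM in RA libraries and 41.4 CPM in control libraries. The groups of MITF overlapped, and it was higher with RA in 2 of 3 pairs. All 4 pigment epithelium markers tested had estimates above 0, against 48.1% of all genes tested. Of these 4, 0 were called and 0 were at an unadjusted p under 0.05 in edgeR. The 4 horizontal and amacrine markers summed to 12.5 to 17.3 CPM in RA libraries and 12.3 to 21.4 CPM in control libraries. The 7 mesenchyme markers summed to 24.9 to 48.0 CPM in RA libraries and 24.6 to 36.0 CPM in control libraries. POSTN among them was the only marker of any list called, with a log2 fold change of 1.19 (edgeR adjusted p = 0.00794). Of the 3 mesenchyme markers tested, COL1A2 was at -0.05 (0.979) and COL3A1 at -0.33 (0.717), lower in 3 of 3 pairs. The part of these cells in the results below was not tested.

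None of the 8 neurite and cytoskeletal genes tested changed with RA at an adjusted p under 0.05 in edgeR, against 1.05% of all genes tested. DESeq2 and limma-voom also called 0 of the 8, against 85 and 59 of the 5041 genes tested. At an unadjusted p under 0.05, CNTN2 was higher and ELAVL4 lower in edgeR, 2 of 8 genes against 8.67% of all genes tested. By estimate 4 of the 8 were higher with RA, against 48.1% of all genes tested, and the median log2 fold change was -0.01, the same to 2 decimals as that of all genes tested. A single direction in 3 of 3 pairs was seen for CNTN2, ELAVL4 and NEFM, 3 of the 8, against 30.0% of all genes tested. In these bulk samples, fewer cells of a type and less RNA per cell cannot be told apart.

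**Figure D1:**
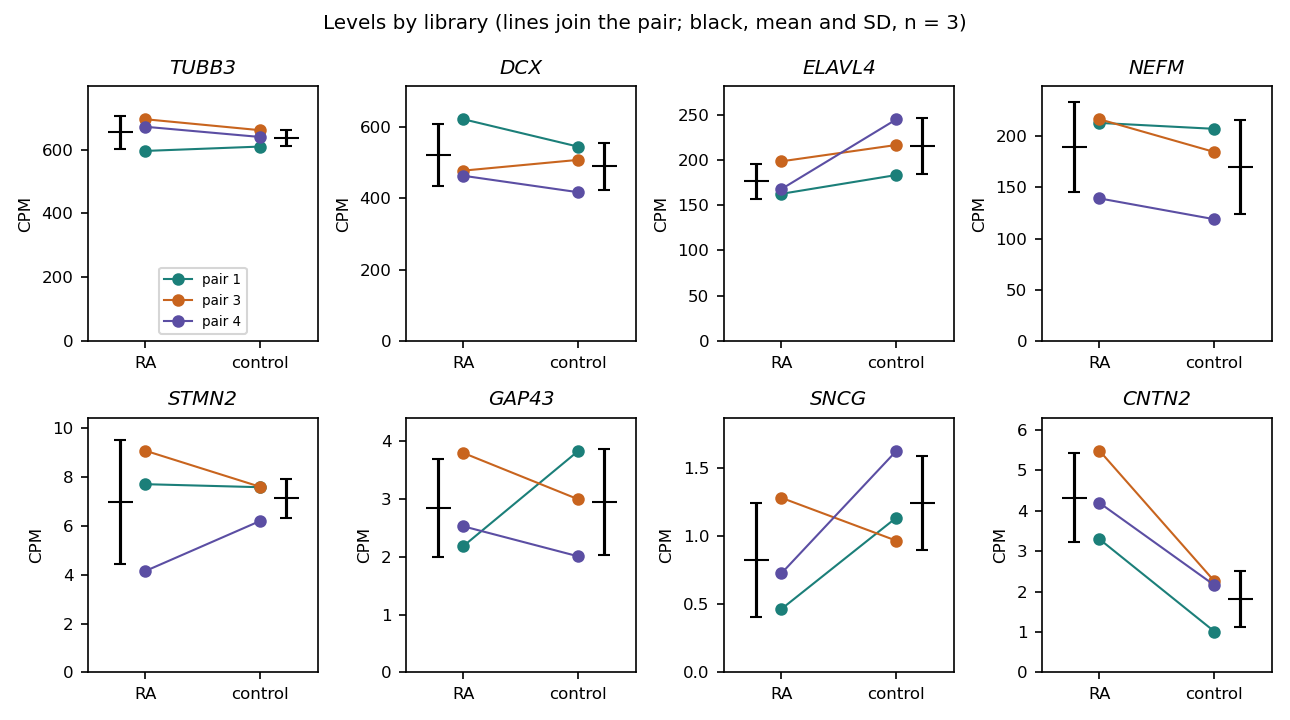
Level of each of the 8 genes tested, in CPM (TMM-scaled, linear axis from 0), in RA libraries at the left and control libraries at the right of each panel. Points are libraries, lines join the libraries of a pair, and black marks are the mean and SD of 3 libraries. CNTN2 is the gene whose RA libraries (3.30 to 5.49 CPM) all lie above its control libraries (1.01 to 2.26 CPM).

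Among the genes that mark the neuronal microtubule and RNA-binding apparatus, TUBB3 is the neuronal class III beta-tubulin. It stood at 596, 695 and 672 CPM in the RA libraries of pairs 1, 3 and 4, against 609.7, 661 and 639.6 CPM in the control libraries of the same pairs. The groups overlapped, and the RA library was the lower of its pair in pair 1 alone. Its mean was 654 ± 51.9 CPM in RA libraries and 637 ± 25.7 CPM in control libraries (SD, n = 3 each), a log2 fold change of 0.04 (SE 0.06, 95% interval -0.10 to 0.17, edgeR adjusted p = 0.923). With 13563 to 16900 reads per library, this was the most narrowly bounded estimate of the 8. Tubulin genes resemble each other in sequence, so reads of TUBB3 may be shared with other tubulins in a way the counting does not show.

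DCX, doublecortin, binds and stabilises the microtubules of migrating and neurite-bearing young neurons. It stood at 622, 478 and 463 CPM in the RA libraries of pairs 1, 3 and 4, against 545, 508 and 417 CPM in the control libraries. It was thus higher with RA in pairs 1 and 4 and lower in pair 3, and the groups overlapped. The log2 fold change was 0.09 (SE 0.07, 95% interval -0.06 to 0.23, edgeR adjusted p = 0.801).

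ELAVL4, also called HuD, is a neuronal RNA-binding protein that stabilises transcripts such as GAP43, as known from mammals. It stood at 163, 198 and 168 CPM in the RA libraries of pairs 1, 3 and 4, against 183, 217 and 245 CPM in the control libraries. The RA library was the lower one in each pair, but the groups overlapped, since the RA library of pair 3 exceeded the control library of pair 1. The mean was 176 ± 19.4 CPM in RA libraries and 215 ± 30.8 CPM in control libraries (SD, n = 3 each), a log2 fold change of -0.28 (SE 0.09, 95% interval -0.47 to -0.10, unadjusted p = 0.00568, edgeR adjusted p = 0.226). Pair 4 carried most of it: its ratio was -0.55 on the log2 scale, against -0.17 in pair 1 and -0.13 in pair 3. Without pair 4 the estimate was -0.14 (adjusted p = 0.842).

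NEFM, the medium neurofilament subunit, gives axons their calibre together with NEFL. It stood at 213, 217 and 139 CPM in the RA libraries of pairs 1, 3 and 4, against 207, 185 and 119 CPM in the control libraries. The RA library was the higher one in each pair, by 0.04, 0.23 and 0.23 on the log2 scale, while the groups overlapped because pair 4 was low in both. The log2 fold change was 0.17 (SE 0.08, 95% interval 0.00 to 0.33, edgeR adjusted p = 0.569).

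STMN2, GAP43, SNCG and CNTN2 had far fewer reads, 13 to 215 per library, where TUBB3, DCX, ELAVL4 and NEFM had 3141 to 17358. These read numbers set the precision and are not corrected for transcript length, so they do not rank the genes by abundance. STMN2, the growth cone stathmin also known as SCG10, destabilises microtubules. It stood at 7.71, 9.07 and 4.15 CPM in the RA libraries of pairs 1, 3 and 4, against 7.58, 7.59 and 6.21 CPM in the control libraries. The RA library of pair 4 was the lowest of the 6 and that of pair 3 the highest. The log2 fold change was -0.09 (SE 0.27, 95% interval -0.67 to 0.48, edgeR adjusted p = 0.964), and without pair 4 the estimate was 0.15.

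GAP43 is a membrane-attached phosphoprotein of growing axons. It stood at 2.19, 3.79 and 2.53 CPM in the RA libraries of pairs 1, 3 and 4, against 3.83, 2.99 and 2.01 CPM in the control libraries. It was lower with RA in pair 1 and higher in pairs 3 and 4, and the groups overlapped. The log2 fold change was -0.05 (SE 0.42, 95% interval -0.93 to 0.84, edgeR adjusted p = 0.986), and without pair 1 the estimate was 0.34 (adjusted p = 0.916).

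SNCG, gamma-synuclein, is enriched in mature ganglion cells of mammals. Its counts were 13, 25 and 17 in the RA libraries of pairs 1, 3 and 4, against 27, 21 and 43 in the control libraries. In CPM these were 0.466, 1.28 and 0.728 in RA libraries, against 1.14, 0.967 and 1.63 in control libraries. The RA library was the lower one in pairs 1 and 4 and the higher one in pair 3. The log2 fold change was -0.67 (SE 0.65, 95% interval -2.06 to 0.71, edgeR adjusted p = 0.838), an interval too wide to bound the change at this depth.

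CNTN2, also called axonin-1 or contactin-2, is an adhesion molecule of the immunoglobulin superfamily on growing axons, and binds L1-type molecules. It had the largest estimated change of the 8. Its counts were 92, 107 and 98 in the RA libraries of pairs 1, 3 and 4, against 24, 49 and 57 in the control libraries. In CPM it stood at 3.30, 5.49 and 4.20 in RA libraries, against 1.01, 2.26 and 2.16 in control libraries. All RA libraries lay above all control libraries. The libraries of the 2 groups did not overlap, in either direction, for 1 of the 8 genes and for 7.48% of all genes tested.

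Within the pairs CNTN2 was 3.26-fold, 2.43-fold and 1.94-fold higher with RA in pairs 1, 3 and 4. Each of these ratios exceeded its counting error, with exact binomial 95% intervals of 1.04 to 2.42, 0.78 to 1.80 and 0.47 to 1.46 on the log2 scale. Over all pairs the mean was 4.33 ± 1.10 CPM in RA libraries and 1.81 ± 0.692 CPM in control libraries (SD, n = 3 each). The log2 fold change was 1.30 (SE 0.39, 95% interval 0.46 to 2.14, unadjusted p = 0.00486), and it missed the threshold over all genes (edgeR adjusted p = 0.207). A change of at least this size was estimated for 1.49% of all genes tested. With 1 pair left out the estimate ranged from 1.12 to 1.49 and the adjusted p from 0.252 to 0.583.

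L1CAM, an axonal adhesion molecule of the L1 family, had 0 reads in all 6 libraries. A count of 0 allows up to 3 reads, or 0.108 to 0.154 CPM depending on the library, for counting error only. Its symbol matched 0 entries of the RefSeq table of the chicken assembly GRCg7b, while the other 9 symbols matched. Whether the value reflects the cells or the gene model that was counted was not tested, and 623 genes of the table were at 0 in all libraries.

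**Figure D2:**
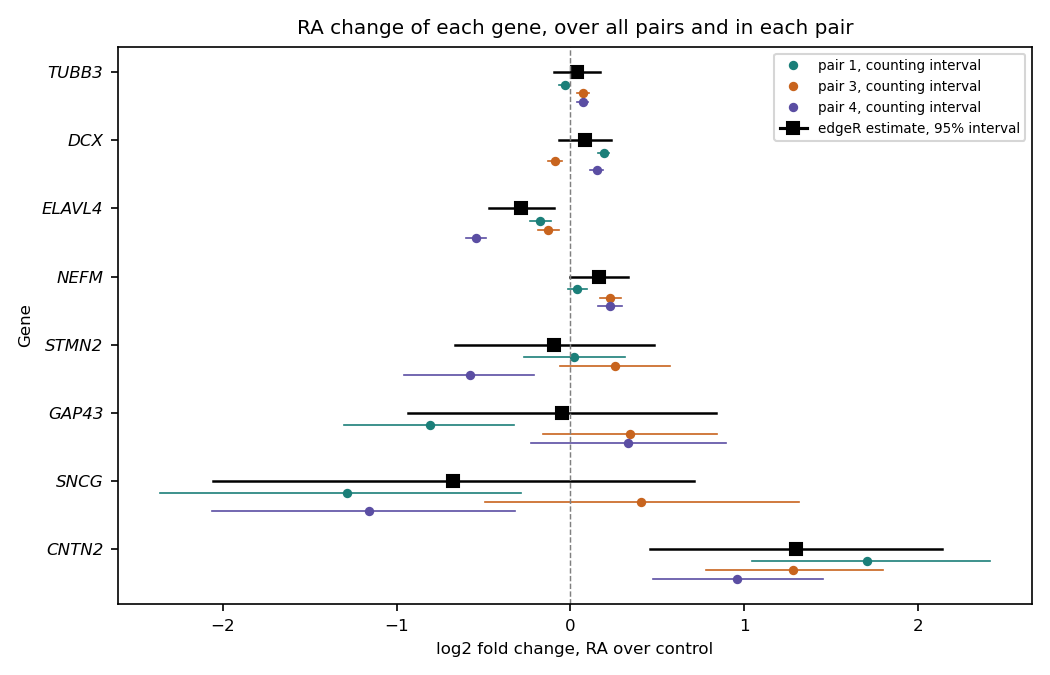
Change with RA of the 8 genes tested, as log2 fold change of RA over control. Black squares and lines are the edgeR estimates with 95% intervals, and coloured points are the ratios in pairs 1, 3 and 4 with exact binomial 95% intervals for counting error. The narrowest edgeR interval is that of TUBB3 (-0.10 to 0.17) and the widest that of SNCG (-2.06 to 0.71). CNTN2 lies to the right of 0 in 3 of 3 pairs.

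The intervals say how large a change these data leave room for. For 6 of the 8 genes, TUBB3, DCX, ELAVL4, NEFM, STMN2 and GAP43, the 95% interval lay between log2 fold changes of -1 and 1. GAP43 came near these bounds, at -0.93 to 0.84. SNCG reached below -1 and CNTN2 above 1. For all genes tested no such share was computed, so 6 of 8 cannot be read as a trait of these genes. The intervals are those of single genes, with no adjustment for the number of genes. Missing the threshold does not show that a gene stayed the same.

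Of the 24 ratios of an RA library to its control library, 18 had a counting interval clear of 0, 9 of them lower and 9 higher with RA. The share over all genes tested was not computed, so this count cannot be read as a trait of these genes. Counting intervals narrow as reads increase, so small ratios clear 0 in genes with many reads. For DCX the pairs differed in direction beyond counting error: it was lower in pair 3 (log2 ratio -0.09) and higher in pairs 1 and 4 (0.19 and 0.15). TUBB3 was lower with RA in pair 1 (-0.03) and higher in pairs 3 and 4 (0.07 each). Its interval in pair 1, -0.065 to -0.0006, barely cleared 0. Counting intervals take the library scaling as exact (TMM factors 1.02 for RA and 1.01 for control in pair 1). The TUBB3 direction in pair 1 is therefore not firm. Spread between libraries beyond counting error is also left out, so the DCX directions are not firm either. The difference between pairs in the RA response was not tested, since each pair holds 1 RA and 1 control library.

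The pairs themselves differed in level. In the same fit, edgeR's quasi-likelihood test of the pair terms called 2 of the 8 genes at an adjusted p under 0.05, NEFM (adjusted p = 0.000481) and DCX (adjusted p = 0.0146), against 13.2% of all genes tested. NEFM averaged 210.1, 201 and 129 CPM over the libraries of pairs 1, 3 and 4, and its pair 4 libraries lay below all others. DCX averaged 584, 493 and 440.3 CPM over pairs 1, 3 and 4, and its pair 1 libraries lay above all others.

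NEFM's difference rested on pair 4: without it the adjusted p was 0.738. That of DCX was lost without pair 1 (adjusted p = 0.144) and without pair 4 (0.0939). STMN2 and GAP43 also had their lowest mean in pair 4, at 5.18 and 2.27 CPM, while CNTN2 and SNCG had theirs in pair 1, at 2.15 and 0.802 CPM, and none of these 4 genes was called. The sorts of pair 1 gave 98000 cells for the RA library and 57000 for the control library, those of pair 3 161000 and 192000, and those of pair 4 200000 each; their part in these levels was not tested.

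**Figure D3:**
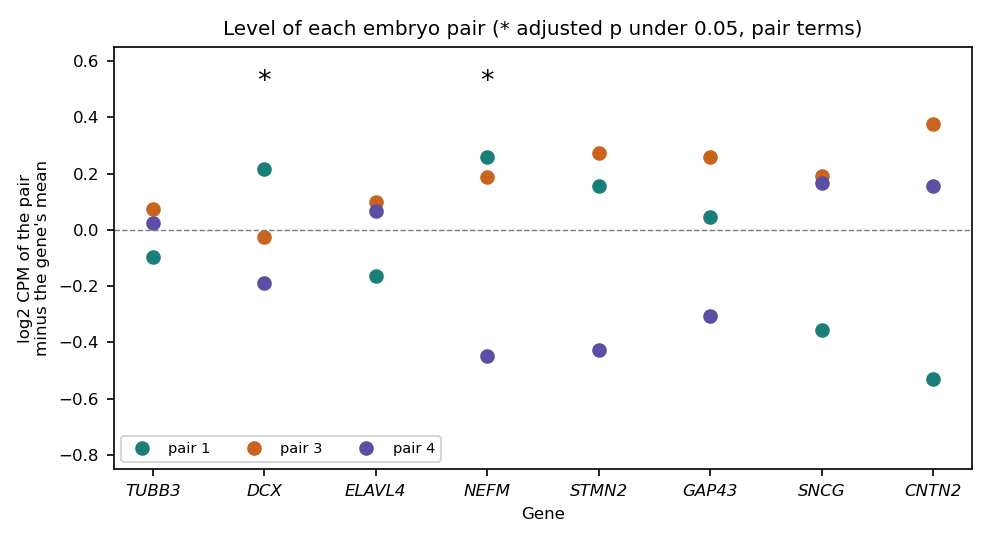
Level of each embryo pair, as the mean log2 CPM of its RA and control libraries minus the gene's mean over all 6 libraries. Asterisks mark an adjusted p under 0.05 for the pair terms. Pair 4 is lowest for NEFM, at -0.45, and also for DCX, STMN2 and GAP43, and pair 1 is highest for DCX, at 0.22.

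The 8 genes did not follow a single course over the libraries. Pearson's r between genes over the 6 libraries ran from -0.75 for DCX with SNCG to 0.83 for ELAVL4 with SNCG, and was 0.78 for NEFM with DCX and 0.75 for STMN2 with NEFM. The libraries share pairs and depth, so these values only describe them. The mean of the 8 standardised profiles was most like FOXN2 (r = 0.99), PNRC2 (0.99), INIP (0.98), ABCE1 (0.97) and LOC378902 (0.97) over 6 libraries, in a comparison of 4493 genes that averaged 50 counts or more. The genes' own r with that mean ran from 0.03 for DCX to 0.79 for STMN2, so it stands for few of them.

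Related genes of the neuronal cytoskeleton, growth cone, axon surface and synapse were read from 5 lists. Of 168 genes listed, 78 had a row and 75 were tested. With RA 3 of the 75 were higher and 0 lower at an edgeR adjusted p under 0.05, against 0.952% and 0.0992% of all genes tested for the 2 directions. Their median log2 fold change was -0.01, as over all genes tested. The called genes were NES, MAP7 and EPHB2, and without the pair as a block 0 of the 75 were called.

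NES, nestin, is the intermediate filament protein of neural progenitors. It stood at 515, 509.8 and 664 CPM in the RA libraries of pairs 1, 3 and 4, against 394, 327 and 359.6 CPM in the control libraries, with no overlap. Its log2 fold change was 0.64 (SE 0.08, edgeR adjusted p = 0.000567), and it kept its call with each pair left out. The other 2 genes tested of the neurofilament and intermediate filament list, VIM and SYNM, were at -0.11 (adjusted p = 0.690) and 0.10 (0.874).

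In the microtubule list 1 of 19 genes tested was higher and 0 lower, with a median log2 fold change of -0.01. MAP7, which recruits kinesin-1 to microtubules, averaged 25.7 ± 8.20 CPM in RA libraries and 15.5 ± 5.37 CPM in control libraries (SD, n = 3 each), a log2 fold change of 0.74 (SE 0.16, edgeR adjusted p = 0.0286). Its groups overlapped, it was higher in 3 of 3 pairs, and it lost its call with any pair left out (adjusted p from 0.0661 to 0.117). The tubulins beside TUBB3 were at -0.06 for TUBB2B, -0.01 for TUBB4B, -0.05 for TUBB6 and 0.00 for TUBA1C on the log2 scale, and TUBB was listed at 0. The stathmins beside STMN2 were at -0.06 for STMN1 and -0.78 for STMN3, the second with a standard error of 0.52.

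In the axonal adhesion list 1 of 10 genes tested was higher and 0 lower, with a median log2 fold change of 0.11. EPHB2, a receptor for ephrin-B guidance ligands, averaged 77.5 ± 20.1 CPM in RA libraries and 51.9 ± 10.4 CPM in control libraries (SD, n = 3 each), a log2 fold change of 0.57 (SE 0.11, edgeR adjusted p = 0.0126). The call was not kept without pair 3 (adjusted p = 0.117) or without pair 4 (0.0629). NCAM1, the neural cell adhesion molecule, was higher in 3 of 3 pairs with a log2 fold change of 0.24 (SE 0.07) that missed the threshold in edgeR (adjusted p = 0.171) and passed it in DESeq2 (0.00960). CNTN1, the other contactin tested, was at 0.29 (SE 0.19, edgeR adjusted p = 0.721).

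Of the growth cone and actin list 0 of 31 genes tested were called in edgeR. At an unadjusted p under 0.05 there were 2, both higher, against 8.67% of all genes tested. These were FSCN1, an actin-bundling protein of growth cones (0.15, edgeR adjusted p = 0.502), and ABLIM1, an actin-binding LIM protein (0.23, 0.502). The median log2 fold change was -0.01. BASP1, a growth cone protein related in function to GAP43, was at 0.03. THY1, a surface protein used to mark ganglion cells in mammals, is named here after its values were seen. It stood at 2.58, 2.92 and 1.80 CPM in RA libraries of pairs 1, 3 and 4, against 0.800, 1.70 and 1.17 CPM in control libraries, a log2 fold change of 1.01 (SE 0.51, edgeR adjusted p = 0.605).

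Of the neuronal RNA-binding and synaptic list 0 of 12 genes tested were called in edgeR. At an unadjusted p under 0.05 there were 2, against 8.67% of all genes tested. NAPB, a factor of vesicle fusion, was at 0.37 (SE 0.15, edgeR adjusted p = 0.478). SNCB, beta-synuclein, was at -1.14 (SE 0.45, adjusted p = 0.447), with 2.37, 0.308 and 3.25 CPM in the RA libraries of pairs 1, 3 and 4 against 2.70, 1.52 and 8.44 CPM in the control libraries. ELAVL1, the broadly expressed relative of ELAVL4, was at 0.03.

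**Figure D4:**
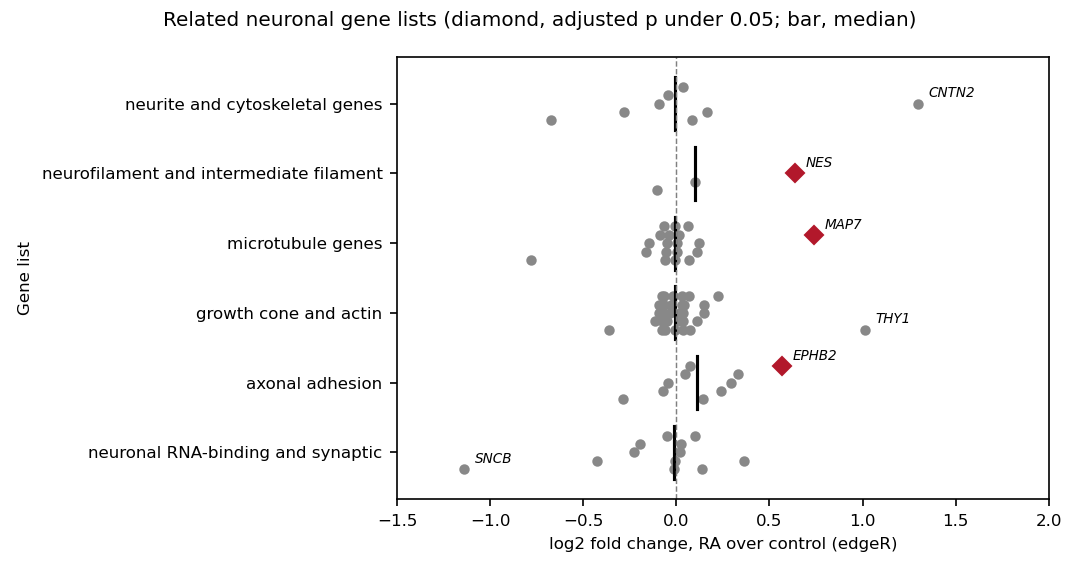
Log2 fold change of RA over control for the 8 neurite and cytoskeletal genes and for the 75 genes tested in 5 related lists. Each point is a gene, diamonds mark an edgeR adjusted p under 0.05, and bars are list medians. NES, MAP7 and EPHB2 are the called genes, and CNTN2 lies farther to the right than any of them without passing the threshold.

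Of the 6 ganglion cell transcription factors tested, 0 were called in edgeR. The list held 12 factors, and POU4F1, POU4F2, ISL2, EBF3, INSM1 and RBPMS were not analysed here. At an unadjusted p under 0.05 there were 3, all higher, against 8.67% of all genes tested. SOX11 and SOX4 were at 0.26 each on the log2 scale (edgeR adjusted p = 0.0685 and 0.0827) and higher in 3 of 3 pairs. Each passed the threshold in 3 of 12 alternatives. The lowest adjusted p was 0.00695 for SOX11, in edgeR without pair 1, and 0.0134 for SOX4, in DESeq2. In edgeR it was 0.503 for SOX11 without pair 3 and 0.430 for SOX4 without pair 4. ISL1 stood at 1.58, 1.54 and 2.31 CPM in the RA libraries of pairs 1, 3 and 4, against 0, 0.921 and 1.21 CPM in the control libraries. Its estimate of 1.75 (SE 0.82, edgeR adjusted p = 0.569) rested on the control library of pair 1, where it was at 0, and was 0.84 without pair 1. It was 2.46 without pair 3. ATOH7 was at -0.16 (lower in 2 of 3 pairs), POU4F3 at 0.02 and EBF1, a factor of the COE family, at 0.10 (lower in 2 of 3 pairs).

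The authors' deposited table, which rests on the same libraries, lists the 8 genes with log2 fold changes from -0.63 for SNCG to 1.31 for CNTN2. The lowest adjusted p of the 8 in the authors' deposited table is 0.661, for CNTN2, followed by 0.775 for ELAVL4. That table calls 12 of its 4752 genes at an adjusted p under 0.05.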

How the data were processed

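The authors deposited whole-number read counts per gene symbol, a table of scaled signal values in which each library's counts are multiplied by 1 factor, and a table of log2 fold changes with p-values for a paired comparison. The submitters' processing notes name STAR 2.5.3a, HTSeq 0.6p1, edgeR 3.18.1 and galGal5. Per the labels' protocols, amplified cDNA gave single reads of 100 bases. Strandedness of the counting is not given in the sources used here, so overlapping antisense genes cannot be separated.

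The counts were tested with edgeR 4.0.16 in R 4.3.3: filterByExpr (minimum count 10, total 15), TMM scaling, glmQLFit with robust moderation, and the pair as a block. Adjustment was by Benjamini-Hochberg over 5041 genes. Standard errors are the log2 fold change divided by the root of the F statistic. Alternatives used limma 3.58.1 (voom), DESeq2 1.42.0, other scalings, filters and thresholds, no block, and each pair left out.

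The pairing comes from the series description, where treated and control eyes share embryos. Deviations from the group means correlated at 0.29, 0.25 and 0.34 in pairs 1, 3 and 4. Chi-square per degree of freedom between replicates was at least 49.5, so none were duplicates. Libraries pool retinas. The edgeR p-values of the RA change rest on the spread left after pair levels are fitted, moderated over all genes tested.

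The genes and lists were chosen with earlier results of these data known. Named genes are the 8 tested, list genes with an adjusted p under 0.05 or, per related list, up to 6 with the lowest unadjusted p under 0.05, RA targets, and 5 genes of like profile. List relatives of the 8, genes at 0, and ATOH7, POU4F3, VIM, SYNM and BASP1 are named in addition. THY1 and the markers OTX2, NEUROD1, RXRG, THRB, CRYAA, ASL1, SOX4, SOX11, ISL1, EBF1, SIX6, PAX6, HES5 and DLL1 are also named, outside that rule. So are the markers SOX2, SIX3, MITF, CRYAB, COL1A2, COL3A1, PTPRC, HBZ, TAL1 and CDH5, and the ganglion cell factors not analysed. Levels per transcript length and the planned promoter motifs were not analysed here, and coordinates are not given, since the assembly of the gene table differs from the counts' build. The exact binomial intervals of single pairs and the floors cover counting error only. The edgeR intervals use the standard errors given above, and so the spread left after pair levels are fitted.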

Additional observations from a re-analysis of the deposited data

How the results depend on the processing

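The number of neurite and cytoskeletal genes called, 0, was 0 under each alternative run. Over all genes tested the alternatives called from 6 of 5041 genes (no block) to 85 of 5041 (DESeq2). With shares so small, 0 of 8 cannot be read as a trait of these genes. The lowest adjusted p of any of the 8 was 0.105, for ELAVL4 in edgeR with no low-count filter. Of 96 values of the 8 genes under 12 alternatives, 94 kept their direction. The 2 that turned were STMN2 without pair 4 (range over left-out pairs -0.27 to 0.15) and GAP43 without pair 1 (-0.25 to 0.34). The median log2 fold change of the 8 ranged from -0.11 to 0.05. CNTN2 ranged from 1.12 to 1.49, with adjusted p from 0.173 to 1.00, and ELAVL4 from -0.36 to -0.14, with adjusted p from 0.105 to 1.00. Without the replicate block the calls over all genes fell to 6 from 53, those in the related lists to 0 from 3, and those among other cell type markers to 0 from 1; the pair differences then stay in the error. With a pair left out the calls over all genes ranged from 33 to 74 (33 without pair 3), those for pair differences of the 8 from 0 to 2, those in the related lists from 1 to 2, and those among the markers from 1 to 4. DESeq2's Wald test called 85 genes, and 3 markers. With no low-count filter 3 markers were called, and 3 at an adjusted p under 0.1. At an adjusted p under 0.01, 1 gene had a pair difference and 1 related gene was called. Called genes lower with RA numbered 5, and 0 without the block, 2 to 16 with a pair left out, 12 with DESeq2 or no filter, 8 with limma-voom, 8 with more than 1 CPM in 3 libraries. The cause was not tested. At 13 to 43 reads per library, SNCG allows no firm statement.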
